A study of Mus musculus with 16 samples.

Results

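The genes described are the nuclear-encoded subunits of the mitochondrial respiratory chain and ATP synthase. They were taken by symbol: the Nduf genes of the A, B, C, S and V series, Sdha to Sdhd, the Uqcr genes, Cox4 to Cox8 and the Atp5 genes. The rule found 97 gene rows of the 57005 in either table, under 96 symbols, and every row stood in both tables. They comprised 39 rows of complex I, 4 of complex II, 10 of complex III, 21 of complex IV and 23 of complex V. Of these rows, 85 are protein-coding in the GENCODE M21 annotation, 11 are processed pseudogenes and 1, Ndufb1-ps, is typed as a long non-coding RNA. The symbol Atp5o stands on 2 of the rows.

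The study measured RNA in C57BL/6 mice labelled control or GRK2 eKO. GRK2 is the G-protein-coupled receptor kinase 2, made by the gene Grk2, and the labels neither spell out eKO nor give the alleles, the driver of the deletion or the number of animals behind a library. Whole back skin at 8 months gave 5 control and 5 eKO libraries with 8213632 to 16383486 reads assigned to genes. Bulge cells sorted for CD34 and α6-integrin, the hair follicle stem cells (HFSC), gave 3 control and 3 eKO libraries with 6428488 to 9387378 reads. The HFSC labels give an age of 18 months, whereas the design text of the series gives 8 months for both tissues. Nothing in the labels says that libraries of a group came from separate animals, so p-values measure the spread between these libraries. Values are normalised read counts, which are reads per gene divided by a scaling factor of the library. The tables of the 2 tissues were normalised separately.

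The respiratory chain sits in the inner mitochondrial membrane. Complex I takes electrons from NADH and complex II from succinate, complex III passes them to cytochrome c, and complex IV hands them to oxygen. Complexes I, III and IV pump protons, and complex V, the ATP synthase, makes ATP as the protons flow back. Most subunits are encoded in the nucleus and a small set in mitochondrial DNA, so each complex other than complex II joins products of both genomes. Skeletal muscle is rich in mitochondria, and whole back skin can carry the thin muscle sheet beneath it. Ckm, the muscle creatine kinase, was therefore used as a measure of muscle content.

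The start regions of many of these genes hold binding motifs of factors known to drive respiratory genes: NRF1, GABP (also called NRF2), the oestrogen-related receptors (ERR), YY1 and CREB, which binds the CRE. Promoters from RefSeq on GRCm38.p6, running from 250 bases before to 50 after each start, were found for 67 members and gave 72 sequences. Those of 4 genes are shown because they hold such motifs and belong to members whose RNA rose (Cox6a1, Uqcrfs1) or fell (Ndufb4, Ndufs4) in eKO HFSC. Capitals mark motif matches on either strand, and no marked match overlaps another motif. They were chosen after their values were seen. The promoters of Atp5b, which rose, and Cox7a2l, which fell, hold no match to these motifs and are not shown. Among called members with a promoter, Atp5b and Cox7a2l had the smallest p in their direction.
Cox6a1: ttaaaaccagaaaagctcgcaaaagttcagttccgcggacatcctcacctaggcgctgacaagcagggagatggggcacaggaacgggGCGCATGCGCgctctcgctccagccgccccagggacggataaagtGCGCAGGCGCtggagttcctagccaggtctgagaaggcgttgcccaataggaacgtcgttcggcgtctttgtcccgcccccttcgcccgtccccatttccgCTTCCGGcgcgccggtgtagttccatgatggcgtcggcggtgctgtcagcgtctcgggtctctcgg
Uqcrfs1: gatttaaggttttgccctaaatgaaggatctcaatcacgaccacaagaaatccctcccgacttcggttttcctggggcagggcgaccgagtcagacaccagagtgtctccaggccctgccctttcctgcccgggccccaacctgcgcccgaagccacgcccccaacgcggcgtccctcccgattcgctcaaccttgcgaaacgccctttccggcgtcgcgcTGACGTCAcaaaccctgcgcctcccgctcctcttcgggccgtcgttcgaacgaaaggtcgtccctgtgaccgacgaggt
Ndufb4: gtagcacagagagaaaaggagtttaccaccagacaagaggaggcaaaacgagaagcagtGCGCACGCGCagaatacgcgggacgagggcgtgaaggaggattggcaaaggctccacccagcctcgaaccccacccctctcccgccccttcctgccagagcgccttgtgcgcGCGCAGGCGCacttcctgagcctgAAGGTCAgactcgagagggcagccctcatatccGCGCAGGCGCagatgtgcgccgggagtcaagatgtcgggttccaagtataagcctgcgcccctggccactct
Ndufs4: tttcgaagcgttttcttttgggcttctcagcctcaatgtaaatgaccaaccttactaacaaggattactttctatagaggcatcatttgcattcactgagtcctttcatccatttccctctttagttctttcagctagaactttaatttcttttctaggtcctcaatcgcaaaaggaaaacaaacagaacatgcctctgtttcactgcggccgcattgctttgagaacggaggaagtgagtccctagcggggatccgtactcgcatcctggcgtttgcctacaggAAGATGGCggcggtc
The Cox6a1 promoter lies at chr5:115348909-115349208 on the minus strand, and holds 2 NRF1 matches and 1 GABP match. The Uqcrfs1 promoter lies at chr13:30545267-30545566 on the minus strand, and holds 1 CRE. The Ndufb4 promoter lies at chr16:37654319-37654618 on the minus strand, and holds 3 NRF1 matches and 1 ERR match. The Ndufs4 promoter lies at chr13:114388045-114388344 on the minus strand, and holds 1 YY1 match.

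Each motif was searched on both strands. The NRF1 motif (GCGCN followed by TGCGC) stood in 19 of the 72 member promoters (26.4%) and in 4.6% of all 32851 promoters of the same length. The GABP motif CCGGAAG stood in 22.2% of the member promoters and 8.86% of all. YY1 (AAGATGGC) stood in 12.5% against 2.75%, ERR (AAGGTCA) in 11.1% against 4.72% and the CRE (TGACGTCA) in 5.6% against 1.79%. Member promoters held a median of 19 CpG dinucleotides and all promoters a median of 7. Of the 8 members that rose in eKO HFSC, 5 had a promoter in the table and 3 of these held an NRF1 motif. All 5 members that fell had a promoter there, and 2 of these held an NRF1 motif. A match describes the letters in this window and is not evidence of a bound factor.

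The gene targeted in the eKO, Grk2, was measured at 1237, 1331, 1331, 1100 and 1492 in control skin. In eKO skin it was at 980, 1100, 1173, 1076 and 1224. The groups overlapped, with a log2 difference of -0.22 and p = 0.0397 in a two-sided exact permutation test, but an adjusted p of 0.343 by limma over all genes. With library size alone as the scaling the exact permutation p was 0.0635, and it lay above 0.05 in most tests that left out a library. In HFSC, Grk2 was at 139, 121 and 144 in control and 114, 122 and 104 in eKO libraries, which also overlapped (exact permutation p = 0.2, where 0.1 is the smallest possible). The sort markers were present: Cd34 stood at 1157 to 1323 in control HFSC and Itga6 at 2047 to 2311. Itga6 was higher in eKO HFSC (3141 to 3290, adjusted p = 5.10e-04 by limma). Cd34 did not pass the test there (adjusted p = 0.638). In skin, eKO replicate 3 and control replicate 5 had almost no reads of Y-linked genes (summed values of 0.642 and 1.90, against up to 2762 in the other libraries), and eKO replicate 3 also had the lowest Ckm.

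Some subunits that every respiring cell needs were listed at or near 0. Ndufa13, an accessory subunit of complex I, was listed at 0 in all 16 libraries, and Ndufb8, another complex I subunit, in every HFSC library although it averaged 59.0 in control skin. The heart and muscle isoform Cox6a2 was likewise listed at 0 everywhere, in skin libraries where Ckm reached 11534. These rows are reported as listed at 0 and not as unexpressed genes. In M21 the exons of Cox6a2 overlap Itgad, those of Ndufa13 overlap Tssk6 and those of Ndufb8 overlap Gm20538. Such overlap is common, with 31 of the 97 rows overlapping another gene. Atp5a1, which averaged 3846 in control skin, is among them. Why the rows above stood at 0 was not tested. Among the protein-coding members, 16 of 85 have a copy elsewhere in the transcript set that is at least 95% identical over at least 50% of the transcript. Their control levels per kilobase of transcript had a median of 216.2 in skin, against 335.6 for the 69 members without such a copy, and of 101.2 against 161.8 in HFSC. Values of members with a copy are uncertain. Of the members called different between genotypes in HFSC, none has one. Ndufs5, a called member only in the comparison of tissues, has 1.

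Per kilobase of transcript, Atp5b, the catalytic β subunit of ATP synthase, had the highest level in control skin (2298). It was followed by the pseudogene row Uqcrh-ps2 (1712) and by Atp5a1, the α subunit (1557). The muscle isoform Cox8b was next in that order at 1531. In control HFSC the order was different: Ndufa4l2 led at 2092 per kilobase, ahead of the complex II anchor Sdhd (875) and the Rieske protein gene Uqcrfs1 (637). Ndufa4l2 is a paralogue of the complex IV subunit Ndufa4 and is known as a gene induced by hypoxia.

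Genes were tested only if their value reached 10 in a number of libraries equal to the size of the smaller group. In skin 85 of the 97 rows passed this filter and in HFSC 79. Of the 12 untested rows in skin, 5 were at 0 in every library. Of the 18 in HFSC, 10 were at 0 in every library, and Cox8b, Cox7a1 and Cox4i2 were among the other 8. Counts below refer to tested rows.

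In whole skin no subunit gene passed the test between genotypes. The test was limma on log2(value + 1), with p-values adjusted over all genes by Benjamini and Hochberg, and a gene was called at an adjusted p under 0.05. Of all 16589 genes tested, 0.374% were called. Of the 85 members, 6 had an unadjusted p under 0.05 (7.06%, against 14.2% of all genes). edgeR and DESeq2 on the reads called 0 members as well, against 0.326% and 3.95% of all genes, each with 6 members at an unadjusted p under 0.05. The members' log2 differences ran from -0.40 to 0.90 with a median of 0.03, and 47 lay above 0 (55.3%, against 50% of all genes) and 38 below. This balance depended on eKO replicate 3, the library with the lowest Ckm. Without it 62 members lay above 0, with a median of 0.09 (0.0029 over all genes), and 0 were called. Leaving out control replicate 5 as well, a choice made after seeing the data, gave 64 above 0, a median of 0.13 (0.0081 over all genes) and 0 calls. No member had groups without overlap, which 4.18% of all genes had. In bulk samples, fewer cells of a type and less RNA per cell cannot be told apart. The summed level of 9 sebaceous gland genes ran from 18460 to 68570 in control skin and from 53890 to 90620 in eKO skin, with 1 gene, Krt79, called higher, and that of 10 hair matrix and shaft genes from 169 to 150200 and from 435 to 59530, with none called. With the hair matrix list as a covariate the count of called members was again 0, and the part of sebaceous gland content was not tested.

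By complex, the skin medians of the log2 difference were 0.0025 in complex I, -0.03 in complex II, 0.09 in complex III, 0.07 in complex IV and -0.0047 in complex V. The summed reads of all members took 0.335% ± 0.0292 of the reads in control skin (SD, n = 5) and 0.356% ± 0.0345 in eKO skin (SD, n = 5). Complex IV held 0.0474% ± 0.0033 of the reads in control and 0.0570% ± 0.0050 in eKO skin, with ranges of 0.0435% to 0.0511% and 0.0499% to 0.0623%. Without Ndufa4l2 these means were 0.0396% and 0.0423%. The other complexes had ratios of eKO to control between 1.01 and 1.07, each with overlapping groups.

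Central subunits of each complex overlapped between the skin groups. Ndufs1 and Ndufv1, which carry iron-sulphur clusters and the NADH site of complex I, were at 206 ± 33.0 and 753 ± 93.2 in control skin and 198 ± 27.9 and 786 ± 87.6 in eKO skin (SD, n = 5 each). Sdha, the flavoprotein of complex II, was at 1506 ± 244 and 1432 ± 311, and its iron-sulphur partner Sdhb at 344 ± 39.0 and 308 ± 29.1. The complex III core gene Uqcrc1 was at 675 ± 65.7 and 632 ± 114, and Uqcrfs1 at 1761 ± 245 and 1929 ± 405. For complex IV, whose catalytic core is encoded in mitochondrial DNA, the nuclear accessory subunit Cox4i1 was at 724 ± 61.6 and 790 ± 125, and Cox5a at 157 ± 9.96 and 139 ± 22.1. Atp5a1 was at 3846 ± 470 and 3991 ± 751, and Atp5b at 4402 ± 463 and 4704 ± 792. None of these differences passed the test, and the 95% interval of the log2 difference ran from -0.22 to 0.39 for Atp5b and from -0.48 to 0.30 for Sdha.

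The smallest p-values in skin were those of 5 members. Cox8a, the ubiquitous form of the smallest complex IV subunit, was at 586, 433, 417, 475 and 425 in control libraries. In eKO libraries it was at 542, 658, 584, 731 and 547. Only control replicate 1 reached into the eKO range, and the log2 difference was 0.39 (SE 0.12, adjusted p = 0.191 by limma). Ndufa4l2 was at 1139, 867, 1477, 566 and 555 in control skin. Its eKO values were 1365, 2518, 1060, 1235 and 2324. The groups overlapped, with eKO replicates 2 and 5 above every control library (log2 difference 0.90, SE 0.33, adjusted p = 0.243 by limma). The other members of this set were lower in eKO without passing the test. They were the complex I accessory subunits Ndufb4 (154 ± 19.4 to 120 ± 12.3) and Ndufa12 (157 ± 26.2 to 120 ± 12.3) and the core subunit Ndufs3 (368 ± 13.3 to 316 ± 27.0). Their log2 differences were -0.35, -0.37 and -0.22 (SD, n = 5 for the levels).

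**Figure D1:**
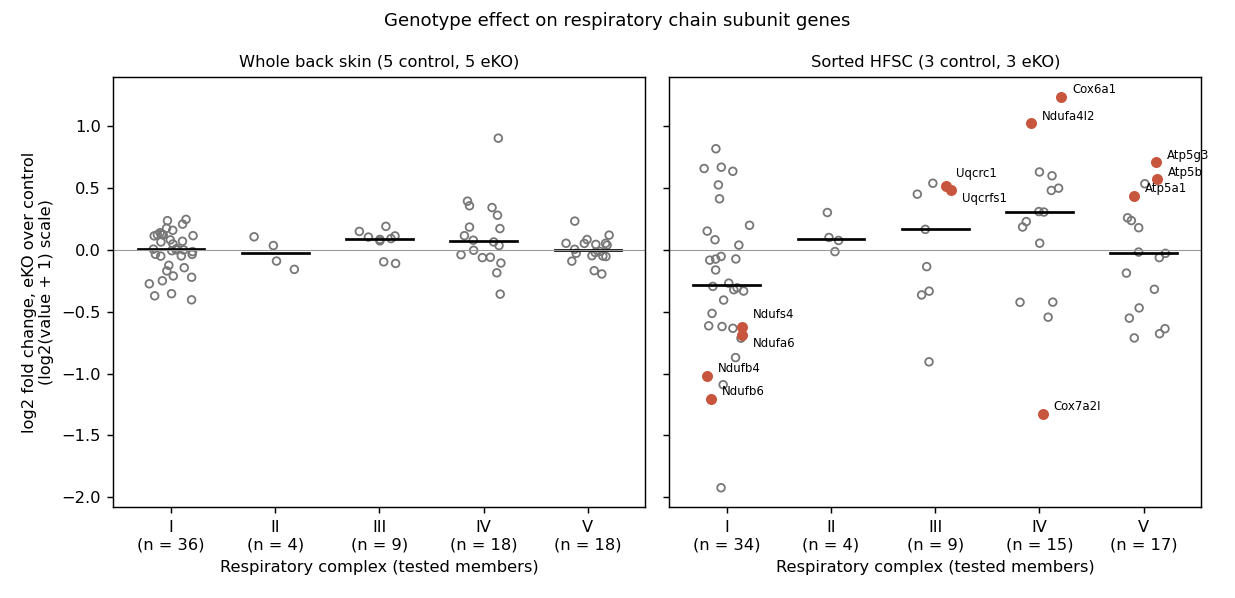
Log2 fold change of eKO over control for each tested respiratory chain gene, by complex, in whole skin (left, 5 against 5 libraries) and sorted HFSC (right, 3 against 3). Open circles did not pass the test, filled and named circles did, and bars are medians over the tested members, of which 1 is not drawn. The complex I bar in HFSC sits at -0.28 and the complex IV bar at 0.30, whereas all skin bars lie within 0.1 of 0 and no skin circle is filled.

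Muscle content varied widely among skin libraries. Ckm was at 6726, 11534, 8356, 4070 and 9716 in control skin and at 6082, 8000, 1786, 11119 and 7267 in eKO skin. The groups overlapped (log2 difference -0.37, exact permutation p = 0.556, where 0.00794 is the smallest possible). All 18 genes of the skeletal muscle list had lower means on the log scale in eKO skin and none passed the test. Their summed level ran from 64400 to 184500 in control libraries and from 27900 to 161300 in eKO libraries. The 4 brown adipocyte genes summed to 773 to 1020 in control and 1485 to 3946 in eKO skin, without overlap, and Cidea was called higher (log2 1.57, adjusted p = 0.0308 by limma). Elovl3 of this list also stands in the sebaceous gland list, and Ucp1, the marker of brown fat, did not exceed 2.84 in any skin library. The part of this shift in the members' values was not tested.

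Most respiratory chain genes were higher where Ckm was higher. With genotype in the limma model, the slope on log2 Ckm was above 0 for 70 of 85 members (82.4%), against 51.2% of all genes. The median slope was 0.14 log2 units per doubling of Ckm, against 0.0045 over all genes. It was positive for all 4 complex II genes and all 9 tested complex III rows, and the median was largest in complex II (0.26), followed by complex III (0.20), complex I (0.14), complex V (0.14) and complex IV (0.08). An unadjusted p under 0.05 was reached by 33 members (38.8%, against 11.4% of all genes). An adjusted p under 0.05 was reached by 3 members, all with positive slopes (3.53%, against 1.42% of all genes in either direction and 1.35% with a positive slope).

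These were Cox8b, the form of the smallest complex IV subunit made in heart, muscle and brown fat, Uqcrq, a small subunit of complex III, and Sdhd, a membrane anchor of complex II. Cox8b was at 512, 497, 623, 351 and 772 in control skin and at 553, 638, 118, 479 and 619 in eKO skin. Its slope was 0.82 (SE 0.16, adjusted p = 0.0327 by limma). Uqcrq was at 793, 873, 903, 814 and 944 in control and at 856, 1074, 594, 1145 and 987 in eKO libraries, with a slope of 0.31 (SE 0.06, adjusted p = 0.0384). Sdhd was at 971, 962, 1030, 792 and 1099 in control and at 1088, 1073, 670, 1104 and 1091 in eKO libraries, with a slope of 0.28 (SE 0.06, adjusted p = 0.0397). For each of them the lowest value of all 10 libraries was that of eKO replicate 3.

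That library weighed on all of this. It had the lowest value of the 10 for 44 of the 85 members (51.8%, against 11.3% of all genes). Without it no slope was called and 3 had an unadjusted p under 0.05, while 62 slopes were still above 0 and their median was 0.10. Leaving it out together with control replicate 5, a choice made after seeing the data, gave 0 calls, 58 slopes above 0 and a median of 0.08. edgeR called 0 slopes, with 31 at an unadjusted p under 0.05. Scaling by library size alone also gave 0 calls, with 19 such slopes.

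With log2 Ckm as a covariate the genotype effect in skin still had no called member, against 0.133% of all genes. Of the 85 members, 13 had an unadjusted p under 0.05 (15.3%, against 15.2% of all genes), and 57 lay above 0 (67.1%, against 50.2% of all genes) with a median of 0.07. edgeR called 0 members in this fit as well, with 10 at an unadjusted p under 0.05. The smallest p was that of Atp5g3, a gene of the c ring of ATP synthase, at 934.7, 939, 1145, 935 and 1084 in control and 1238, 1242, 871, 1401 and 1212 in eKO skin. Control and eKO ranges overlapped through eKO replicate 3, and the log2 difference was 0.23 without the covariate and 0.31 with it (SE 0.09, adjusted p = 0.174 by limma). Ndufa4l2 and Cox8a moved little, to 1.00 and 0.40. The difference of Cox8b went from -0.36 to -0.05.

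**Figure D2:**
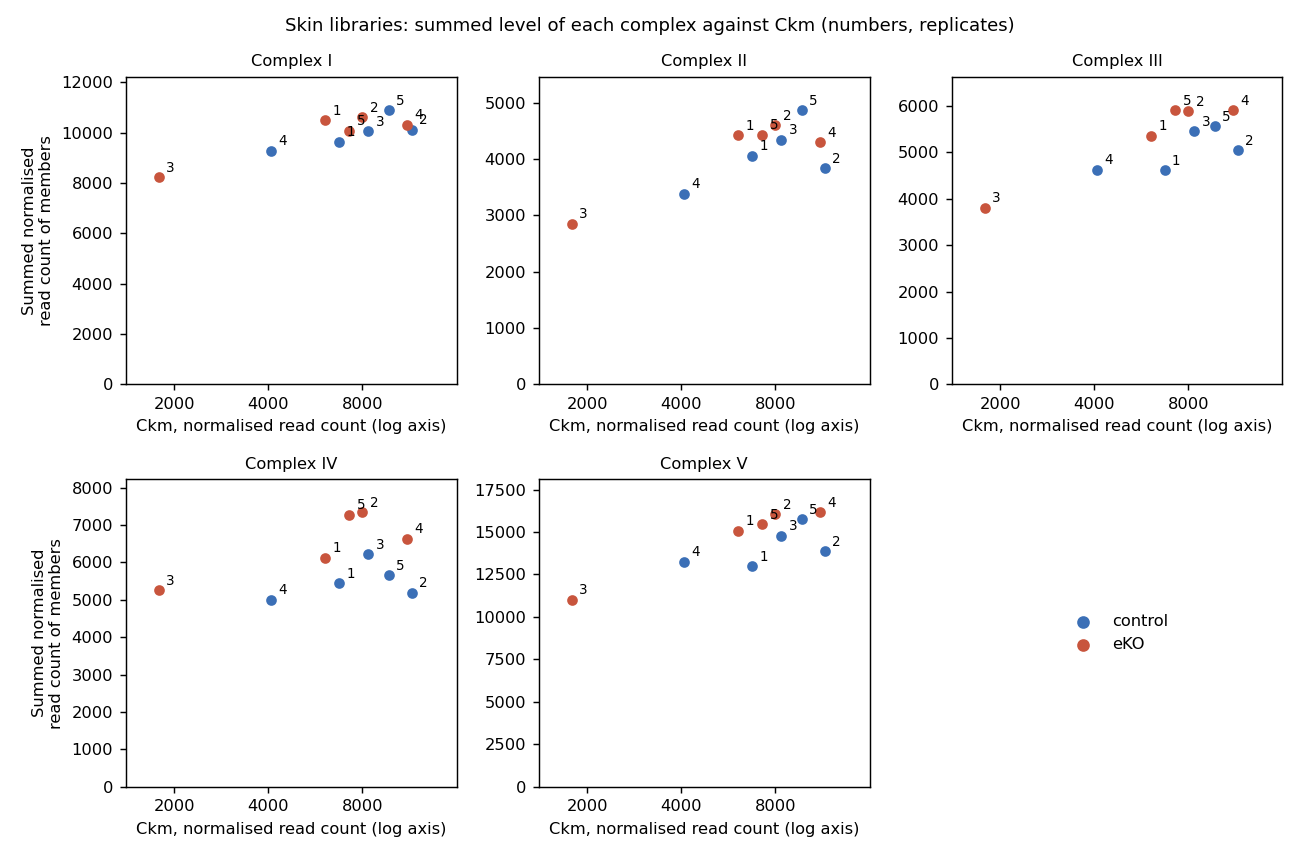
Summed normalised read count of the members of each complex (linear axis from 0) against Ckm (log axis) in the 10 skin libraries, with numbers giving the replicate. The eKO library with Ckm at 1786 has the lowest sum in complexes I, II, III and V, and in complex IV the sums of eKO replicates 2, 4 and 5 lie above those of all controls.

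In sorted HFSC, 13 of 79 tested members were called, 8 higher and 5 lower in eKO. That is 16.5%, against 19.4% of all 13784 genes tested. Higher calls were 10.7% of all genes and lower calls 8.74%. Groups did not overlap for 27 members (34.2%), against 36.3% of all genes. The share of changed genes among members was thus near that of the transcriptome, and the median log2 difference was the same to 2 decimals (-0.03 in each). The complexes differed in direction. Above 0 lay 37 of the 79 members (46.8%, against 47.7% of all genes). In complex I 23 of 34 members lay below 0, with a median of -0.28, and 4 members were called lower and 1 higher. The medians were 0.09 in complex II, 0.16 in complex III, 0.30 in complex IV and -0.03 in complex V. These medians and counts are descriptions, with no test over the members.

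Complex I held 4 of the 5 called members that fell and 1 of the 8 that rose. It makes up 34 of the 79 tested members, and 14.7% of these 34 were called, against 19.4% of all genes. Ndufs4, an accessory subunit of the peripheral arm whose loss in mice is a known model of Leigh syndrome, was at 610, 609 and 647 in control and 390, 420 and 401 in eKO HFSC. The groups were far apart, with a log2 difference of -0.62 (SE 0.13, adjusted p = 0.00473 by limma). Ndufb4, a subunit of the membrane arm, was at 246, 220 and 186 in control and 159, 98.7 and 75.6 in eKO (log2 -1.02, SE 0.28, adjusted p = 0.0207). Ndufb6, in the same arm, was at 81.8, 63.1 and 65.0 against 25.8, 21.9 and 45.8 (log2 -1.20, adjusted p = 0.0485). Ndufa6, an accessory subunit, was at 289, 206 and 266 against 184, 157 and 131 (log2 -0.69, adjusted p = 0.0397). Just outside the threshold was Ndufs5, an accessory subunit that passed the filter through its control libraries, at 40.9, 22.1 and 30.0 against 15.2, 4.38 and 5.33 (log2 -1.92, adjusted p = 0.0533). The core genes Ndufs1 (245 ± 30.2 to 197 ± 18.7) and Ndufv1 (497 ± 35.3 to 529 ± 87.4) did not pass (SD, n = 3).

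No gene of complex II was called. Sdha was at 1154 ± 21.3 in control and 1219 ± 102 in eKO HFSC, and Sdhb at 335 ± 46.5 and 361 ± 70.2 (SD, n = 3). In complex III 2 of 9 tested members were called (22.2%, against 19.4% of all genes), and both rose. Uqcrfs1, the Rieske iron-sulphur protein, was at 847, 920 and 839 in control and 1352, 1043 and 1277 in eKO libraries (log2 0.49, SE 0.12, adjusted p = 0.0143 by limma). Uqcrc1, a core subunit, was at 758, 854 and 714 against 1425, 947 and 1000.2 (log2 0.52, adjusted p = 0.0321). All eKO libraries lay above all controls for each.

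Complex IV held the largest changes in either direction among called members. Of its 15 tested members 3 were called (20%, against 19.4% of all genes). Ndufa4l2 was at 1780, 1898 and 2184 in control and 4773, 3477 and 3735 in eKO HFSC. The lowest eKO library was well above the highest control. The log2 difference was 1.02 (SE 0.12, adjusted p = 8.43e-05 by limma). Cox6a1, the ubiquitous form of subunit 6a, was at 47.9, 57.9 and 58.0 against 184, 92.1 and 128 (log2 1.24, SE 0.31, adjusted p = 0.0149). Cox7a2l, a factor that joins complexes III and IV into supercomplexes and is known in a shortened form in C57BL/6 mice, fell from 433, 450 and 453 to 227, 129 and 190 (log2 -1.32, SE 0.21, adjusted p = 6.83e-04). The accessory subunit genes Cox4i1 (274 ± 16.1 to 342 ± 64.5) and Cox5a (64.9 ± 37.7 to 41.1 ± 13.9) did not pass (SD, n = 3).

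In complex V the genes of the α and β subunits, which form part of the catalytic head, rose. Of the 17 tested complex V members 3 were called (17.6%, against 19.4% of all genes), and 10 of the 17 lay below 0. Atp5b was at 1170, 1219 and 1087 in control and 1792, 1679 and 1685 in eKO HFSC (log2 0.57, SE 0.10, adjusted p = 0.00146 by limma). Atp5a1 was at 1416, 1430 and 1372 against 1836, 1972 and 1909 (log2 0.44, SE 0.09, adjusted p = 0.00521). Each group was tight, and the groups were well separated. Of the 3 genes that encode the same mature c-ring protein, Atp5g3 rose from 178, 146 and 187 to 315, 255 and 264 (log2 0.71, adjusted p = 0.0213). Atp5g1 (143 ± 48.9 to 94.8 ± 41.6) and Atp5g2 (279 ± 33.3 to 219 ± 121) did not pass (SD, n = 3). The share of Atp5g3 in the reads of Atp5g3 and Atp5g2 was 37.9% ± 0.941 in control and 57.8% ± 14.1 in eKO HFSC (SD, n = 3).

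**Figure D3:**
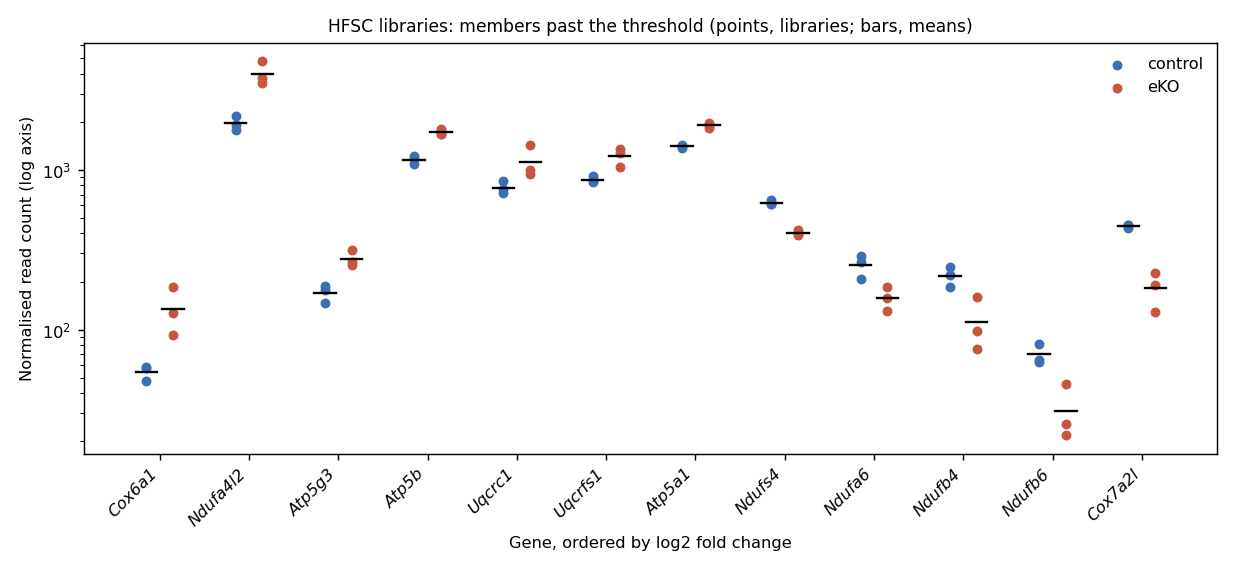
Normalised read counts (log axis) of 12 of the 13 members that passed the test in HFSC, in 3 control and 3 eKO libraries, ordered by log2 fold change, with points for libraries and bars for means. For each gene the control and eKO points do not overlap, and Cox7a2l, at the right end, drops from near 450 to between 129 and 227.

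Summed over genes, the members took 0.314%, 0.314% and 0.319% of the reads in control HFSC and 0.388%, 0.325% and 0.342% in eKO HFSC. Complex I took 0.0968%, 0.0932% and 0.0954% against 0.0923%, 0.0756% and 0.0773%, so that every eKO share lay below every control. As summed normalised values the groups overlapped, at 6485, 6300 and 6421 in control and 6569, 5329 and 5421 in eKO, with eKO replicate 1 above every control. Complex V took 0.0800%, 0.0757% and 0.0754% against 0.0896%, 0.0913% and 0.0866%, with every eKO library above. Complex IV took 0.0573% ± 0.0047 against 0.0835% ± 0.0145 (SD, n = 3). Without Ndufa4l2 these means were 0.0282% and 0.0270%.

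Markers of other cell types moved with genotype in the sorted libraries. Over all genes tested in HFSC, 10.7% were called higher and 8.74% lower, and the counts of calls below stand beside these shares. The summed level of 8 endothelial genes, including Pecam1, Cdh5 and Vwf, ran from 14.7 to 44.0 in control HFSC and from 1046 to 1270 in eKO HFSC, and 7 of the 8 were called higher. At such control sums most of these genes passed the filter in whole or in part through the eKO libraries, where they are high. Their calls therefore add no support beyond the summed levels. The summed level of 9 sebaceous gland genes ran from 3193 to 3352 and from 12670 to 13490, with 4 of 7 tested genes called higher. The 6 leukocyte genes summed to 279 to 335 and 1354 to 2275, with 3 of 4 tested genes higher. The 10 hair matrix and shaft genes summed to 587 to 649 and 2207 to 2453, with 6 of 7 tested genes higher. The 4 Y-linked genes, which do not mark a cell type, were all called lower, with summed levels of 2340 to 2476 and 704 to 831. Every eKO library lay below every control, so genotype and the sex make-up of the HFSC libraries cannot be told apart here. The 8 bulge stem cell genes summed to 155000 to 158400 and 134600 to 153500, with 1 called higher and 2 lower. Of the 18 muscle genes, 6 were at 0 in all HFSC libraries, Acta1 among them, and Ckm was at 0, 0 and 0 in control and 12.1, 16.4 and 0 in eKO. The 7 adipocyte genes summed to 2.99 to 28.4 in control and 53.7 to 88.7 in eKO HFSC, and the only tested one, Fabp4, was called higher (log2 3.40, adjusted p = 0.0179 by limma), while Adipoq, Cidec and Retn were at 0 throughout. Fabp4 likewise passed the filter in whole or in part through the eKO libraries. The 4 brown adipocyte genes summed to 93.6 to 131 and 436 to 644, with Cidea and Elovl3, the latter shared with the sebaceous gland list, called higher and Ucp1 at 0 in every library. The part of these shifts in the values of the respiratory chain genes was not tested.

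Which calls held depended on the libraries used. Ndufa4l2, Cox7a2l, Atp5b, Ndufs4 and Atp5a1 were called in each of the 6 fits that left out a library and under the 6 other settings. The number of called members was 5 without control replicate 1, 8 without control replicate 2 and 8 without control replicate 3. The calls over all genes also became fewer in these fits, at 10.6%, 10.8% and 12.4%, against 19.4% with all libraries. Of the other called members given here, Cox6a1 was called in 4 of the 6 leave-one-out fits and Uqcrfs1 and Atp5g3 in 3. Ndufb4, Ndufa6 and Uqcrc1 were called in 2. Ndufb6 was called in only 1 of these fits, and it lost the call with edgeR, without the filter and with the replicate number as a block. Uqcrc1 lost its call with library size alone and Ndufa6 without the filter. For genes whose exons overlap another gene in M21, reads of the pair cannot be told apart without knowing the strand setting of the counting, which is not given in the sources used here. Ndufa4l2 overlaps Shmt2, itself at 280 in control and 389 in eKO HFSC on average. Ndufb6 overlaps Smim27 (11.1 and 11.2), and Atp5a1 overlaps Haus1 (149 and 140).

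The genotype effects of the tissues were compared by fitting both in limma and testing the difference, HFSC minus skin. Of 79 members 3 were called, all complex I genes and all lower in HFSC. This is 3.80%, against 5.62% of 13227 genes, of which 2.18% were lower. Ndufs4 had log2 effects of -0.62 in HFSC and 0.01 in skin (difference -0.63, SE 0.16, adjusted p = 0.0295). Ndufb6 had -1.20 and 0.12 (difference -1.32, SE 0.34, adjusted p = 0.0309). Ndufs5 had -1.92 and 0.01 (difference -1.93, SE 0.50, adjusted p = 0.0339), but in HFSC only 1 of its eKO libraries reached 10, so that it passed the filter through the controls, and the call was lost with edgeR and without the filter. In skin, Ndufs4 stood at 382 ± 34.2 in control and 384 ± 40.8 in eKO (SD, n = 5). None of the 3 was called in all 16 fits that left out a library, and there were 0 calls without skin eKO replicate 1, without skin eKO replicate 2 or without HFSC control replicate 1. The difference for Cox7a2l was -1.26 (adjusted p = 0.0848) and that for Ndufa4l2, called in HFSC but not in skin, was 0.12 (95% interval -0.83 to 1.07, adjusted p = 0.912). Labelled age, sorting and RNA preparation differ between the tissue sets and cannot be told apart from tissue here.

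Several subunits of complex IV come in a ubiquitous form and a form made in muscle, lung, testis or hypoxic cells. Ndufa4l2 held 64.1% ± 10.01 of the reads of Ndufa4l2 and Ndufa4 in control skin and 74.2% ± 9.79 in eKO skin (SD, n = 5), with overlapping ranges of 50.5% to 74.6% and 59.4% to 85.0%. In HFSC it held 94.7% ± 1.32 and 97.3% ± 0.294 (SD, n = 3), and all eKO libraries were above all controls. Ndufa4 itself was at 109 ± 29.5 and 112 ± 22.2 there. Cox8b held 53.4% ± 9.09 of the Cox8b and Cox8a reads in control skin and 41.8% ± 14.9 in eKO skin (SD, n = 5), where eKO replicate 3 was at 16.8% (Wilson 95% interval 14.7% to 19.1%, counting error only). In HFSC Cox8b had 1 read in 1 control library and 0 reads in the other 5.

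Cox7a1, the heart and muscle form of subunit 7a, held 7.82% ± 1.08 of the reads shared with Cox7a2 in control skin and 9.37% ± 3.68 in eKO skin (SD, n = 5). Cox4i2, the form made in lung, held 4.91% ± 0.815 of the reads shared with Cox4i1 in control skin and 4.76% ± 1.47 in eKO skin. In HFSC neither form passed the filter, with at most 7.98 and 6.999 normalised reads in any library. Cox6b2, known from testis, was found in both tissues. It held 19.8% ± 6.14 and 23.9% ± 5.93 of the reads shared with Cox6b1 in control and eKO skin (SD, n = 5), and 21.1% ± 8.41 and 14.9% ± 7.11 in HFSC (SD, n = 3). None of these forms was called different between genotypes.

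**Figure D4:**
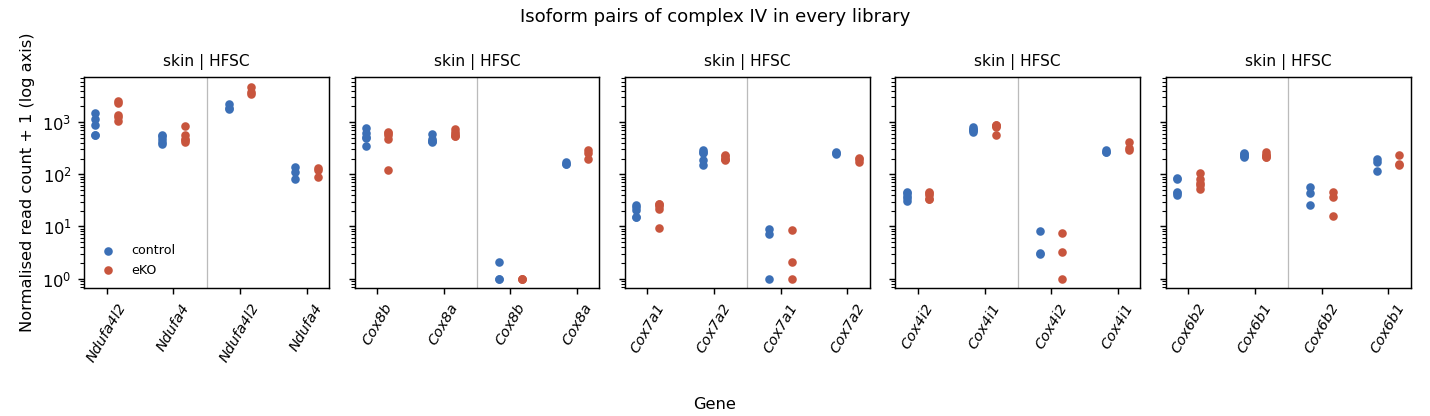
Normalised read count plus 1 (log axis) of each isoform and its partner in every library, with skin left and HFSC right of the grey line in each panel, and values of the tissues normalised separately. In HFSC, Ndufa4l2 lies above Ndufa4 in every library and Cox8b lies at or near 0 reads, whereas in skin Cox8b is near the level of Cox8a except in the eKO library at 118.

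Other genes of the pathway were examined as lists. Of the 13 subunits encoded in mitochondrial DNA, 10 were tested in skin. None was called and all had log2 values below 0 (median -0.14). In HFSC 8 were tested: mt-Cytb, the cytochrome b of complex III, rose (log2 0.32, adjusted p = 0.0128 by limma) and mt-Nd5 of complex I fell (log2 -0.28, adjusted p = 0.0309). None of the 46 assembly factors was called in either tissue (41 tested in skin, 42 in HFSC), with medians of -0.06 and 0.11. Of all genes, 0.374% were called in skin and 19.4% in HFSC. None of the 14 regulators of mitochondrial biogenesis was called either. Among them Nrf1 had a log2 difference of -0.32 (adjusted p = 0.0915) and Gabpa one of -0.39 (adjusted p = 0.113) in HFSC. Of the 13 genes of cytochrome c and the electron carriers, 12 were tested in each tissue and none was called. Cycs, the cytochrome c gene, had a log2 difference of 1.117 in HFSC (adjusted p = 0.0919).

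The exchange of ATP and ADP across the inner membrane runs through the carriers Slc25a4 and Slc25a5. Both rose in eKO HFSC, by log2 0.58 (adjusted p = 6.99e-04 by limma) and 1.25 (adjusted p = 5.19e-05), and they were the 2 called genes of 8 membrane carriers. Of 13 citric acid cycle genes, Cs, the citrate synthase, and Idh3a, a subunit of isocitrate dehydrogenase, rose (log2 0.58, adjusted p = 0.00113, and 0.53, adjusted p = 0.00627), and none fell. These 2 of 8 and 2 of 13 genes stand against 19.4% of all HFSC genes called, so neither count is a result particular to its list. In skin no carrier and no citric acid cycle gene was called between genotypes. Slc25a4, the form known from heart and muscle, had a slope of 0.63 on log2 Ckm there (SE 0.09, adjusted p = 0.00697).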

How the data were processed

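RNA was measured in 10 whole skin libraries and 6 sorted HFSC libraries, one table per tissue. The skin RNA was poly-A selected, per the labels' protocols. The submitters' processing notes name featureCounts and DESeq2 for skin and the build GRCm39 for both tissues, without versions; the aligner, annotation and strand setting are not given in the sources used here. The deposited signal values are read counts per gene that the authors divided by a size factor for each library: dividing by the smallest step returned whole reads for 100% of the nonzero values (tolerance 0.01). Of the value columns, 0 were left unmapped.

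Gene symbols came from GENCODE M21 (GRCm38), which matched 94.1% of the skin and 91.4% of the HFSC rows. Ndufa4 and Ndufa4l2 were placed in complex IV. Genes that reached a value of 10 in a number of libraries equal to the size of the smaller group were tested with limma 3.58.1 (R 4.3.3) on log2(value + 1) with a trended prior. P-values were adjusted by Benjamini and Hochberg over all genes, with a threshold of 0.05, and the tissues were fitted separately. A fold change on this scale understates that of low genes. Single genes (Grk2, Ckm) were compared with two-sided exact permutation tests. The skin slope was fitted on log2 Ckm with genotype in the model, and the difference between tissues as an interaction. The alternatives were edgeR 4.0.16 and DESeq2 1.42.0 on the recovered reads, library size alone, a pseudocount of 5, no filter, each library left out in turn, the replicate block, marker covariates and, added after seeing the data, leaving out skin eKO replicate 3 with control replicate 5. The fits were tested on simulated data, with the same spread between replicates set for all genes, which real libraries need not have. There, 2-fold changes were called for 85% of the changed genes in skin, 44% in HFSC and 29.3% in the difference between tissues. For 4-fold changes these shares were 100%, 100% and 97.8%. The changed genes were drawn only from genes with higher mean values, so these shares do not cover low genes. A change of 2-fold or less in HFSC can thus go uncalled. A larger one in a low gene can as well: Ndufs5, at log2 -1.92, was not called (adjusted p = 0.0533 by limma).

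The text names the members past the threshold in a tissue, the 5 with the smallest p where fewer than 5 pass, the isoform pairs, central subunits, the 5 with the smallest interaction p, and up to 5 genes of each list. The values of 1 member are not reported here, although it enters the counts. Members and lists were chosen with earlier results of these data known. Skin replicates have no numbers in the labels and pair nothing. The 26 replicate pairs of a group differed by far more than sampling noise (chi-square per gene 5.65 to 110). Depth was 8213632 to 16383486 reads in skin and 6428488 to 9387378 in HFSC. Wilson intervals of read shares cover counting error only. Intervals of differences were built from the limma standard errors and reflect the spread between libraries.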

Additional observations from a re-analysis of the deposited data

Results flagged for a closer look

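Among 78 groups of 5 skin libraries checked, the highest or lowest library stood apart from the rest of its group in 9, where chance gives about 1 in 20. Of these, 6 are the lowest value of eKO replicate 3, the library with the least Ckm: Atp5a1 at 2676, Cox4i1 at 575 and Ndufb6 at 232 normalised reads, and 0.0271% of reads in complex II, 0.0361% in complex III and 0.296% in all members. The others are Ndufs4 at 323 in control replicate 4, complex I at 0.0979% of reads in control replicate 5 and Cox6a1 at 397 in eKO replicate 4.

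The genotype effect was called different between HFSC and skin by the interaction test of limma for Ndufs4 (log2 difference -0.63), Ndufb6 (-1.32) and Ndufs5 (-1.93), each lower in eKO HFSC. These 3 calls are 3.80% of the tested members, against 5.62% of all genes. None of them was called in all 16 fits that left out a library. Ndufs5 passed the HFSC filter through its control libraries and lost the call with edgeR and without the filter.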

How the results depend on the processing

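In skin no member was called between genotypes under any setting tried, with or without log2 Ckm, and the leave-one-out fits gave 0 to 0 calls. In HFSC the count of 13 (19.4% of all genes called) was 13 with edgeR (18.9%), 15 with DESeq2 (21.9%), 12 with library size alone (20.2%), 13 with a pseudocount of 5 (20.5%) and 10 without the filter (11.3%), where lower calls numbered 3. Leaving out a library gave 5 to 15 calls, 3 to 10 higher and 2 to 6 lower, with 10.6% to 18.4% of all genes called. Of the 13 called members, 5 were called in every fit. HFSC replicate numbers showed no pairing of the libraries. Same-numbered libraries correlated at -0.0602 to -0.018 in their deviations from the group means, and differently numbered ones at -0.0167 to 0.0395. Of the 6 libraries, 0 correlated best with their own number. With 3 libraries in a group such correlations cannot decide whether the numbers pair them. With the replicate block 11 members were called, 7 higher and 4 lower.

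The slope on log2 Ckm had 3 called members with a pseudocount of 5 or the muscle list in place of Ckm, 1 without the filter, 1 without the genotype term and 0 with edgeR, with library size alone or without skin eKO replicate 3 and control replicate 5. Leaving out a library gave 0 to 4. The difference between tissues had 2 called members with edgeR, 2 without the filter, 4 with library size alone and 0 to 5 when a library was left out (0 to 5 lower, 0 to 1 higher). As summed values in place of shares of reads, the ratio of eKO to control HFSC was 1.1 in complex II and 1.22 in complex V. The Grk2 difference in skin was -0.1977 with library size alone (exact permutation p = 0.0635) and ran from -0.2805 to -0.1704 when a library was left out. No called value changed sign under any setting. Causes of these shifts were not tested. At 6428488 to 9387378 reads, HFSC genes with fewer than 10 normalised reads were not tested.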
